A study of Mus musculus with 6 samples.

Results

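NF-κB subunits and their inhibitors were examined in follicular B cells, the recirculating B cells of the spleen, from wild-type and GPR174-deficient mice. The 10 genes were taken by name from the count table, which held all of them among 12431 genes. They comprised 5 genes for the DNA-binding subunits (Nfkb1, Nfkb2, Rel, Rela and Relb) and 5 genes for inhibitors (Nfkbia, Nfkbib, Nfkbie, Nfkbiz and Tnfaip3). All 10 passed the filter on low counts, as did 10514 genes in all. GPR174 is a Gαs-coupled receptor for lysophosphatidylserine, and the study asked how early in culture its absence alters B cell gene expression. Cells described as CD23+ CD21/35- were sorted from spleens of adult males and kept for 1 h in complete RPMI with no added stimulus. PolyA RNA was then sequenced from transcript 3′ ends. CD21/35 is encoded by Cr2, whose reads are given below with the marker genes. The 3 WT libraries came from Gpr174+/Y mice and the 3 KO libraries from Gpr174-/Y mice, in which tdTomato takes the place of the coding exon, so that the deficiency is not limited to B cells. All WT and KO cells shared the sort, the medium and the 1 h of culture, and uncultured cells were not analysed here.

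NF-κB is a family of dimeric transcription factors that resting B cells hold in the cytoplasm, bound by inhibitory IκB proteins. Signals from the B cell receptor, CD40, Toll-like receptors or the BAFF receptor lead to degradation of IκB or to processing of the precursor encoded by Nfkb2, and the dimers then enter the nucleus. Several inhibitor genes, Nfkbia and Tnfaip3 among them, are themselves NF-κB targets and so form a negative feedback loop. In B cells the family is known for its role in survival, activation and the expression of costimulatory molecules.

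Nfkbia was the one member that differed by the edgeR test, and it was lower in WT cells, at 74.5% of the KO level. None of the 5 subunit genes passed the test. Rel, which encodes the subunit c-Rel, came nearest and was higher in every WT library than in every KO library. The inhibitor genes Nfkbib and Nfkbiz likewise did not overlap between genotypes, with lower values in WT, but neither passed the test. Of the 10 members, 1 was therefore called at an edgeR adjusted p under 0.05, beside 1.82% of all genes tested.

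The sequences upstream of Nfkbia, Rel and Nfkbib, the members with the smallest p values, are shown because NF-κB and the cAMP-responsive factor CREB act through short motifs in promoters. Each run is the 250 bases before the annotated start, 5′ to 3′ on the strand of the gene, from RefSeq on build GRCm38.p6, which has the same chromosome coordinates as mm10. The windows are chr12:55492648-55492897 (minus strand) for Nfkbia, chr11:23770970-23771219 (minus strand) for Rel and chr7:28766645-28766894 (minus strand) for Nfkbib. The Nfkbib window precedes a RefSeq start but lies within the gene as GENCODE annotates it, at 28758251 to 28767512. Some windows of other members, those of Nfkb2 among them, also lie within the GENCODE gene. Capitals mark matches, on either strand, to the κB motif of 10 letters or to TGACG, the core of the cAMP response element.
Nfkbia: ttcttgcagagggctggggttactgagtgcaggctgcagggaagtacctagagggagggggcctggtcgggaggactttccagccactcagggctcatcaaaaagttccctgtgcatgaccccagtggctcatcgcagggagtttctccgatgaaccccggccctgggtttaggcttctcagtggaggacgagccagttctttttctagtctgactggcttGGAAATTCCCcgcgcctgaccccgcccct
Rel: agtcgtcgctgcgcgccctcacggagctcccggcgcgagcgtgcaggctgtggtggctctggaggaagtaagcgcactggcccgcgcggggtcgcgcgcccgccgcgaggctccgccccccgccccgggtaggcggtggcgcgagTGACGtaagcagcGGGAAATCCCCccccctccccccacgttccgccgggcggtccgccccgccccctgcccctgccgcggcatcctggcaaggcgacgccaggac
Nfkbib: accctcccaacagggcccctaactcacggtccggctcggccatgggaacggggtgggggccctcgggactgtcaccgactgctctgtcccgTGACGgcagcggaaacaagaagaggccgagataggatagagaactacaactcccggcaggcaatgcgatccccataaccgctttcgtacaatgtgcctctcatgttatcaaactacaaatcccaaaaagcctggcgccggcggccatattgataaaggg

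Nfkbia had 1 κB match, between 29 and 20 bases before the start and read on the opposite strand, and no TGACG. Rel had 2 overlapping κB matches, which together span 92 to 82 bases before the start, with a TGACG between 105 and 101 bases before it. Nfkbib had no κB match and 1 TGACG. Windows were found for 7 of the 10 members, and for Nfkb1, Relb and Nfkbiz none is shown. A κB match lay in 5 of the 7 members (Nfkb2, Rel, Nfkbia, Nfkbie and Tnfaip3), in 7 of their 10 windows, against 3.9% of all 32851 windows of that length. TGACG lay in 4 of the 7 (Nfkb2, Rel, Nfkbib and Tnfaip3), in 5 of the 10 windows, against 17.8% of all windows. Nfkb2 and Tnfaip3 each have more than 1 window. Every Nfkb2 window held a κB match and some of them share bases, so the windows are not separate observations. The full element TGACGTCA, which contains TGACG on both strands, was found in none of the 7 and in 1.55% of all windows. These are matches of letters only, and binding was not measured.

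Total counts ranged from 8452460 to 10944833 per library. Levels are given as CPM, the counts of a gene scaled to a common library size with TMM factors. Since the reads come from transcript ends, CPM was not divided by length, and a gene with more reads is not taken to have more transcripts. The targeted gene Gpr174 was at 136, 125 and 121 CPM in WT replicates 1, 2 and 3 and at 99.8, 100.2 and 99.8 CPM in KO replicates 1, 2 and 3. Gpr174 was called higher in WT, with no overlap, at a log2 fold change, WT over KO, of 0.35 ± 0.09 (SE, edgeR adjusted p 0.0359). Its counts do not tell reads of the removed coding sequence from reads of the rest of the gene, so they gave no check of the labels. Of the 8 follicular B cell markers examined, 7 were in the table, among them Ms4a1 at 1274 to 1413 CPM and Fcer2a (CD23) at 403 to 571 CPM. Their summed level was 3976 to 4132 CPM in WT and 4570 to 4678 CPM in KO, and 1 of the 7, Cd79b, was called. Summed levels were 44.1 to 61.3 CPM in WT and 34.0 to 51.9 CPM in KO for 6 of 7 T cell markers, 38.6 to 57.8 and 38.0 to 44.7 CPM for 7 myeloid markers, and 7.27 to 13.2 and 5.85 to 5.996 CPM for 4 of 5 NK cell markers. For plasma cell markers the sum ran from 449 to 528 CPM over WT libraries and from 560 to 623 CPM over KO libraries. Their called gene, Irf4, which follicular B cells also express, made up most of it, averaging 373 (WT) and 484 CPM (KO). The lower WT sum came from Irf4. Means, WT before KO, were 20.2 and 14.6 CPM for Igj and 8.59 and 6.67 CPM for Sdc1, both higher in WT. Prdm1 (12.5 and 12.5 CPM) and Xbp1 (79.8 and 78.8 CPM) were almost equal. Marginal zone B cell markers summed to 1972 to 2110 CPM in WT and 1904 to 2187 CPM in KO. The largest of them was Cr2, at means of 1043 CPM in WT and 1057 CPM in KO. Single libraries ranged from 981 to 1166 CPM. Cr2 encodes the antigen that the sorted cells are described as lacking, so its reads sit oddly with that description. Whether these reads came from the sorted follicular cells or from other cells was not tested. Most of the T cell sum was Lck, at means of 42.5 CPM in WT and 37.4 CPM in KO. Erythroid markers were carried by a haemoglobin gene, Hbb-bs (named Beta-s in the table), and 3 of 6 summed to 2679 to 4714 CPM in WT and 3010 to 7569 CPM in KO. The part of these other cells in the results below was not tested. In bulk RNA, fewer cells of a type and less RNA per cell cannot be told apart.

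Among the inhibitors, Nfkbia encodes IκBα, which masks the nuclear localization signal of NF-κB dimers and is resynthesized after it is degraded. The gene lies on chromosome 12 at 55489410 to 55492647 (mm10, minus strand), with no other annotated gene across it. Nfkbia was at 2029, 2529 and 2166 CPM in WT replicates 1, 2 and 3 and at 3207, 2900 and 2913 CPM in KO replicates 1, 2 and 3. The lowest KO library lay above the highest WT library, which was WT replicate 2. WT libraries averaged 2241 CPM ± 259 (SD, n = 3), against 3007 CPM ± 174 (SD, n = 3) for KO libraries. The log2 fold change, WT over KO, was -0.42 ± 0.07 (SE), with a 95% interval of -0.57 to -0.28 and an edgeR adjusted p of 0.000805. By p value it stood at rank 52 of the 10514 genes tested. The share of all tested genes called lower in WT was 0.514%, and the inhibitors contributed 1 of 5. With each library left out in turn the log2 fold change of Nfkbia ran from -0.52 to -0.36 and the edgeR adjusted p from 8.34e-06 to 0.0174, so no single library carried the call.

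**Figure D1:**
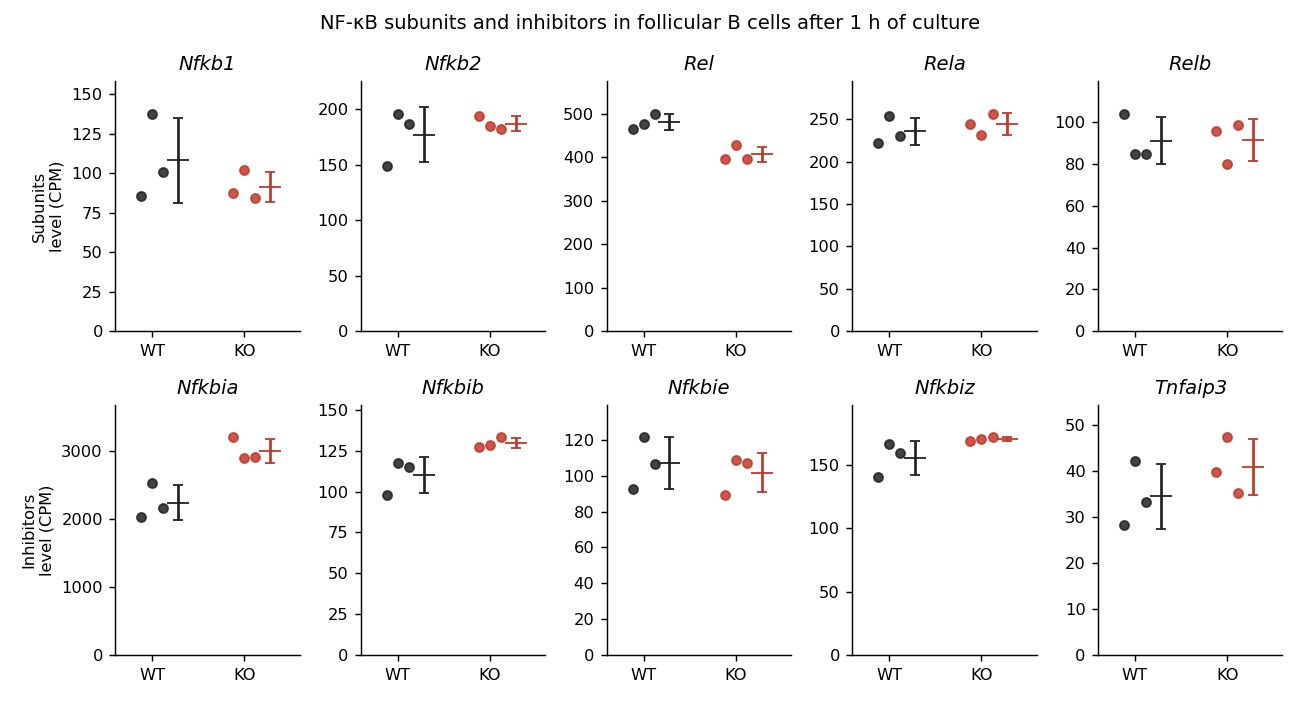
Level in CPM of each of the 10 members in the 3 WT (black) and 3 KO (red) libraries, each panel with its own axis from 0; points are libraries and bars are mean ± SD. Nfkbia, Nfkbib and Nfkbiz are lower and Rel is higher in every WT library than in every KO library, and the other 6 genes overlap.

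Nfkbib encodes IκBβ, a second cytoplasmic inhibitor that is less subject to rapid resynthesis. It was at 97.7, 118 and 115 CPM in WT replicates 1, 2 and 3 and at 127, 129 and 133 CPM in KO replicates 1, 2 and 3. The genotypes did not overlap, and WT replicate 1 was the lowest library. Its log2 fold change was -0.24 ± 0.09 (SE), with a 95% interval of -0.43 to -0.05 that did not include 0, but the edgeR adjusted p was 0.256. Annotated genes on the opposite strand, Sirt2 and Ccer2, overlap Nfkbib on chromosome 7, and its counts are uncertain to that extent because the use of strand in counting was not given in the sources used here.

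Nfkbie encodes IκBε, an inhibitor that is abundant in B cells and also an NF-κB target. It was at 92.6, 122 and 107 CPM in WT and at 89.6, 109 and 107 CPM in KO, each in the order of replicates 1, 2 and 3. The ranges overlapped, with WT replicate 2 above every KO library, and the log2 fold change of 0.07 ± 0.11 (SE) had a 95% interval of -0.15 to 0.29. The edgeR adjusted p was 0.857.

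Nfkbiz encodes IκBζ, a nuclear member of the IκB family that can restrain NF-κB or act with it on chosen promoters. It was at 140, 166 and 160 CPM in WT replicates 1, 2 and 3 and at 169, 171 and 172 CPM in KO replicates 1, 2 and 3. The KO libraries lay close together above all WT libraries, with WT replicate 2 just below them. The log2 fold change was -0.13 ± 0.08 (SE), with a 95% interval of -0.31 to 0.04 and an edgeR adjusted p of 0.583.

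Tnfaip3 encodes a ubiquitin-editing enzyme that acts upstream, on the adaptors that lead to the IκB kinase, and not by binding NF-κB. It was at 28.3, 42.2 and 33.2 CPM in WT replicates 1, 2 and 3 and at 39.9, 47.3 and 35.3 CPM in KO replicates 1, 2 and 3. Replicate 2 was the highest in both genotypes, and the genotypes overlapped. WT over KO, the log2 fold change was -0.24 ± 0.15 (SE), with a 95% interval of -0.56 to 0.07 and an edgeR adjusted p of 0.583. It had the fewest reads of the members, and its coefficient of variation between libraries was 20.5% in WT and 14.9% in KO, against a counting error of at most 5.85%.

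Among the subunits, Rel encodes c-Rel, a transactivating subunit prominent in mature B cells and needed for their proliferation. The gene lies on chromosome 11 at 23736847 to 23770970 (mm10, minus strand), with no other annotated gene across it. Rel was at 465, 478 and 501 CPM in WT replicates 1, 2 and 3 and at 395, 428 and 397 CPM in KO replicates 1, 2 and 3. Every WT library was above every KO library, and the coefficient of variation was 3.77% in WT and 4.52% in KO, the lowest of the members in WT. Its log2 fold change was 0.24 ± 0.07 (SE), a 1.18-fold higher level in WT, with a 95% interval of 0.10 to 0.38. The edgeR adjusted p was 0.0590, just above the threshold, and Rel stood at rank 220 by p value. It passed under DESeq2, the tool the study used (adjusted p 0.0126), and when testing was limited to genes averaging 50 counts or more (edgeR adjusted p 0.0438). With each library left out in turn its log2 fold change stayed between 0.21 and 0.28 and the edgeR adjusted p ran from 0.0827 to 0.296. Of all tested genes, 1.3% were called higher in WT, and of the 10 members 0 were by edgeR with the usual filter or by limma-voom and 1, Rel, was by DESeq2.

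Rela encodes the transactivating subunit of the classical NF-κB dimer. It was at 222, 254 and 231 CPM in WT and at 245, 232 and 257 CPM in KO, each in the order of replicates 1, 2 and 3. The genotypes were interleaved. The log2 fold change was -0.05 ± 0.08 (SE), and the 95% interval of -0.21 to 0.11 limits any difference to about that size. The edgeR adjusted p was 0.852.

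Nfkb1 encodes a precursor whose processed form is the usual partner of the Rela and Rel proteins. It was at 85.8, 138 and 101 CPM in WT replicates 1, 2 and 3 and at 87.2, 102 and 84.4 CPM in KO replicates 1, 2 and 3. WT replicate 2 stood well above the other libraries, and the rest overlapped. WT over KO, the log2 fold change was 0.24 ± 0.15 (SE), with a 95% interval of -0.07 to 0.55 and an edgeR adjusted p of 0.573. Without WT replicate 2 the log2 fold change was 0.03, so that library set the size of the difference. The size was close to that of Rel, but the Nfkb1 libraries were the most variable of the members in WT, with a coefficient of variation of 24.7%. A predicted gene on the same strand, Gm43430, overlaps Nfkb1.

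Nfkb2 and Relb belong to the alternative pathway, in which the Nfkb2 precursor holds RelB until it is processed. Nfkb2 was at 149, 196 and 186 CPM in WT replicates 1, 2 and 3 and at 194, 185 and 182 CPM in KO replicates 1, 2 and 3. WT replicate 1 was the lowest library, and the other WT libraries lay within or beside the KO range. Its log2 fold change was -0.08 ± 0.09 (SE), with a 95% interval of -0.27 to 0.11 and an edgeR adjusted p of 0.795. Genes on the opposite strand, Psd and AC114539.1, overlap Nfkb2. Relb was at 104, 84.7 and 84.9 CPM in WT replicates 1, 2 and 3 and at 95.8, 80.2 and 98.7 CPM in KO replicates 1, 2 and 3. The genotype means were almost equal, at 91.2 CPM ± 11.2 and 91.6 CPM ± 9.92 (SD, n = 3). Its log2 fold change was -0.004 ± 0.11 (SE), with a 95% interval of -0.23 to 0.22 and an edgeR adjusted p of 0.994.

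**Figure D2:**
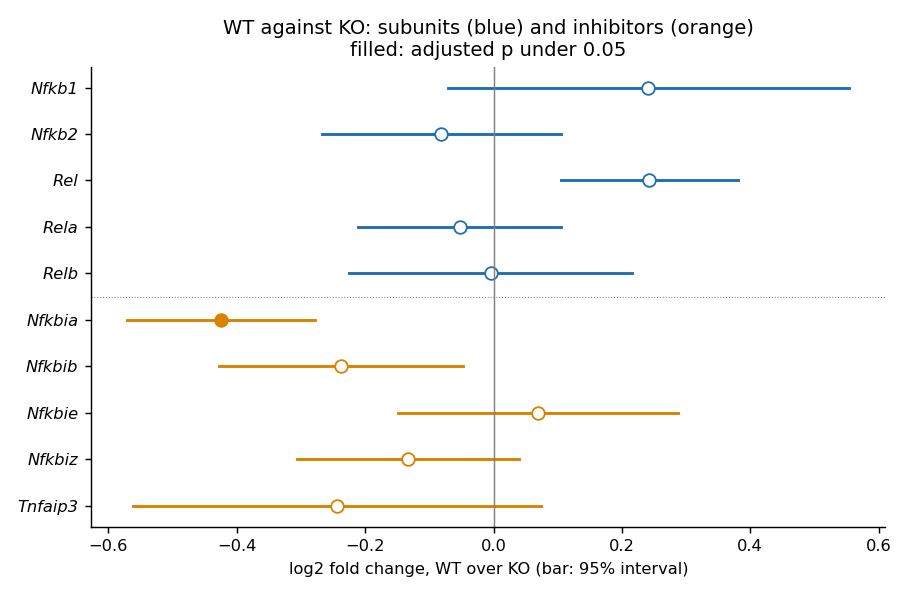
Log2 fold change, WT over KO, of the 5 subunit genes (blue) and 5 inhibitor genes (orange), with 95% intervals from the edgeR fit; filled points have an adjusted p under 0.05. Only Nfkbia is filled, at -0.42, and the intervals of Rel and Nfkbib also leave out 0.

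The 2 classes were then set side by side. The median log2 fold change was -0.24 over the 5 inhibitors, ranging from -0.42 to 0.07, and -0.004 over the 5 subunits, ranging from -0.08 to 0.24, while the median of all genes tested was -0.003. Below 0 were 4 of 5 inhibitors and 3 of 5 subunits, against 50.4% of all genes tested. Of the 10 members 3 had an unadjusted p under 0.05 (Nfkbia, Rel and Nfkbib), where 11.9% of all genes tested did. The genotypes did not overlap in 4 of the 10, against 16.7% of all genes tested, and these were 3 inhibitors lower and 1 subunit higher in WT. This was not particular to the members. In the other pathway lists given below it held for 7 of 21 upstream activators, 6 of 17 further regulators and 10 of 25 targets. A median over 5 genes is a description of these genes, and no test was run on either class.

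Within each library, reads of the inhibitors were set against reads of the subunits, a ratio that does not depend on how libraries are scaled. Nfkbia gave 197.7, 220.0 and 196.3 counts per 100 subunit counts in WT replicates 1, 2 and 3, and 315.3, 282.5 and 286.0 in KO replicates 1, 2 and 3. The gap between the highest WT and the lowest KO library was larger than the SD of either genotype, 13.3 in WT and 18.0 in KO. In WT the mean ratio was 69.5% of that in KO. The other 4 inhibitors together gave 35.0, 38.9 and 37.6 counts per 100 subunit counts in WT replicates 1, 2 and 3, and 41.8, 44.4 and 43.9 in KO replicates 1, 2 and 3. These ranges did not overlap either, with a WT mean at 85.7% of the KO mean, although none of the 4 genes passed the test. Without the subunits as denominator the genotypes did overlap, since the 4 genes summed to 358.7, 447.8 and 414.7 CPM in WT replicates 1, 2 and 3 and to 425.3, 455.5 and 447.3 CPM in KO replicates 1, 2 and 3. The ratios compare libraries and not the levels of the genes, and they follow from the members' own values above.

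**Figure D3:**
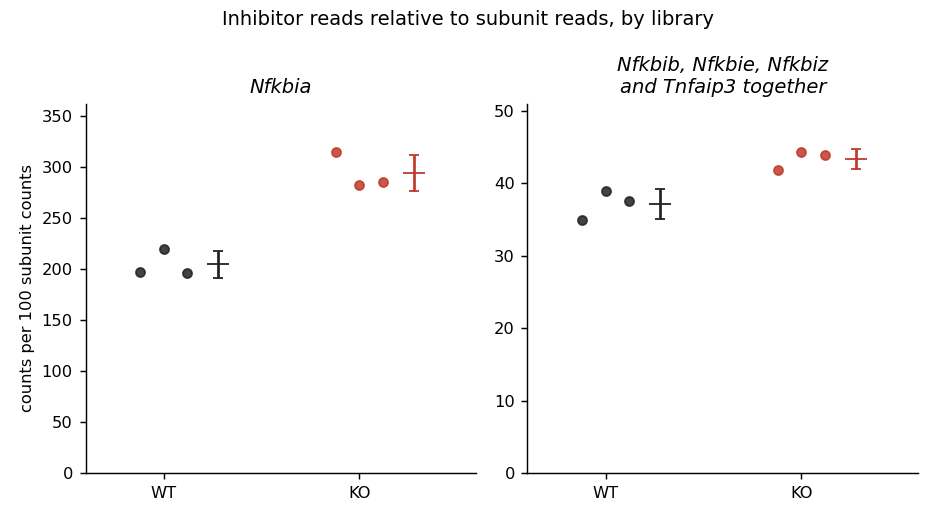
Counts of Nfkbia (left) and of the other 4 inhibitors together (right) per 100 counts of the 5 subunits in each WT (black) and KO (red) library, with mean ± SD. For Nfkbia the WT libraries lie between 196.3 and 220.0 and the KO libraries between 282.5 and 315.3.

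The summed level of the 5 subunits was 1026, 1150 and 1103 CPM in WT replicates 1, 2 and 3 and 1017, 1027 and 1019 CPM in KO replicates 1, 2 and 3. KO libraries were nearly equal, and WT libraries were more spread, with WT replicate 1 near the KO values. The summed level of the 5 inhibitors was 2387, 2977 and 2581 CPM in WT and 3632, 3356 and 3361 CPM in KO, in the same order. Spread between libraries was thus larger in WT for the subunits and for the inhibitors. Of the 10 members, 9 had a higher coefficient of variation in WT than in KO, the exception being Rel. The members share the same libraries, so the 9 are not separate observations, and the share among all genes was not computed. The spread is therefore not taken as particular to the members.

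The genes whose profile over the 6 libraries was most like that of Nfkbia were sought by the root mean square difference of log2 CPM, each gene centred on its own mean. The 5 nearest were Ubxn2b, Pias4, Decr1, Foxj3 and Filip1l, at differences of 0.0399, 0.0536, 0.0536, 0.0687 and 0.0698, where the median gene was at 0.309. Pias4 encodes a SUMO ligase and Decr1 a mitochondrial reductase of fatty acid oxidation. The difference between genotypes is part of this likeness, so genes near Nfkbia have similar log2 fold changes by selection. Of the 5, Filip1l was called, averaging 491 CPM over WT and 666 CPM over KO libraries (edgeR adjusted p 0.000131), which is not separate evidence. The other 4 had mean levels of 7.53 to 29.5 CPM and were not called, so few reads lie behind their likeness.

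Other genes of the pathway were examined by lists. Upstream activators comprised the IκB kinase subunits, the NF-κB-inducing kinase and the adaptors that join receptors to them, and all 21 were tested. By edgeR 0 of 21 were called, as by DESeq2 and limma-voom, beside 1.82% of all genes tested. An unadjusted p under 0.05 was found for 3 of 21, beside 11.9% of all genes tested. Their median log2 fold change was -0.02. The genes of the list with the most reads were Prkcb, a kinase that links the B cell receptor to NF-κB, at 2811 ± 177 CPM (WT) and 2730 ± 75.5 CPM (KO), each ± SD with n = 3, and Ikbkb, a catalytic subunit of the IκB kinase, at 265 CPM ± 25.3 and 274 CPM ± 26.1. Their log2 fold changes were 0.04 ± 0.06 and -0.05 ± 0.08 (SE). The smallest adjusted p in the list was that of Malt1, which encodes a protease, named after its value was seen. It was at 177, 192 and 139 CPM in WT replicates 1, 2 and 3 and at 138, 133 and 128 CPM in KO replicates 1, 2 and 3. WT replicate 3 lay beside the KO libraries, at a log2 fold change of 0.35 ± 0.10 (SE, edgeR adjusted p 0.0736). Malt1 was called higher in WT when WT replicate 3 was left out.

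Further regulators comprised atypical IκB proteins, deubiquitinases and other proteins that limit the pathway. Of 19 genes 17 were tested, one of them Otulin under its older name Fam105b. By edgeR 0 of 17 were called, as by DESeq2 and limma-voom, beside 1.82% of all genes tested, and 5 of 17 had an unadjusted p under 0.05, beside 11.9%. Their median log2 fold change was -0.03. Tax1bp1, an adaptor for the enzyme encoded by Tnfaip3, was at 602 ± 22.6 CPM (WT) and 614 ± 17.4 CPM (KO), each ± SD with n = 3. Nfkbid, another nuclear IκB protein, was at 291 ± 37.0 CPM (WT) and 275 ± 11.3 CPM (KO), each ± SD with n = 3.

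Genes known to be induced by NF-κB in lymphocytes were listed as targets. Of 30 listed, 25 were tested and 7 were called, or 28% against 1.82% of all genes tested, with 4 lower and 3 higher in WT and a median log2 fold change of -0.02. The calls in this list were known when it was written, and the study's text on these libraries names Cd86, Ccr7 and the AP-1 family, to which Junb belongs, so the count is not independent evidence. Several of these genes also respond to cAMP or to other pathways.

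Lower in WT were Tnf and Ltb, which encode cytokines of the tumour necrosis factor family, Irf4, a transcription factor of activated B cells and plasma cells, and Cd69, an early activation marker. Tnf was at 8.33, 7.75 and 10.2 CPM in WT replicates 1, 2 and 3 and at 15.4, 20.2 and 14.8 CPM in KO replicates 1, 2 and 3. Every KO library was above every WT library, with a log2 fold change of -0.94 ± 0.23 (SE, edgeR adjusted p 0.0304). Tnf was not called by limma-voom (adjusted p 0.0516). Irf4 was at 331, 402 and 388 CPM in WT and at 456, 489 and 507 CPM in KO, in the same order. Here too the genotypes did not overlap, at a log2 fold change of -0.38 ± 0.07 (SE, edgeR adjusted p 0.00430). Ltb was at 71.4 ± 9.98 CPM (WT) and 103.3 ± 15.7 CPM (KO), each ± SD with n = 3, and Cd69 at 182 ± 23.0 CPM (WT) and 244 ± 35.8 CPM (KO), each ± SD with n = 3. Their edgeR adjusted p values were 0.0134 and 0.0423. With each library left out in turn, the call was lost in 5 of 6 fits for Tnf, 4 for Cd69, 2 for Ltb and 2 for Irf4. None of the 4 was called without WT replicate 1. A microRNA gene on the same strand overlaps Ltb.

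Higher in WT were Junb, an AP-1 subunit, Cd86, a costimulatory ligand, and Ccr7, a chemokine receptor that guides B cells to T cell zones. Junb was at 822, 869 and 907 CPM in WT replicates 1, 2 and 3 and at 428, 452 and 396 CPM in KO replicates 1, 2 and 3. The WT libraries were far above the KO libraries, at a log2 fold change of 1.03 ± 0.07 (SE, edgeR adjusted p 1.33e-10). Cd86 was at 66.1, 78.0 and 68.5 CPM in WT and at 42.6, 45.1 and 51.4 CPM in KO, in the same order. Its ranges did not overlap, at a log2 fold change of 0.61 ± 0.12 (SE, edgeR adjusted p 0.00289). Ccr7 was at 1281 ± 43.2 CPM (WT) and 1055 ± 54.5 CPM (KO), each ± SD with n = 3, with an edgeR adjusted p of 0.0125. The Junb and Cd86 calls were kept in all 6 fits that left out a library, and that of Ccr7 was kept in 4, being lost when KO replicate 1 or 3 was omitted. Prdx2, on the opposite strand, overlaps Junb.

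The listed targets with the most reads among those not called were Cd83, an activation marker, and Ccnd2, a cyclin. Cd83 was at 1709 ± 175 CPM (WT) and 1784 ± 8.39 CPM (KO), each ± SD with n = 3, with a 95% interval on the log2 fold change of -0.20 to 0.08. Ccnd2 was at 360 ± 102 CPM (WT) and 391.8 ± 67.6 CPM (KO), each ± SD with n = 3, and its interval of -0.86 to 0.61 was too wide to place it.

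**Figure D4:**
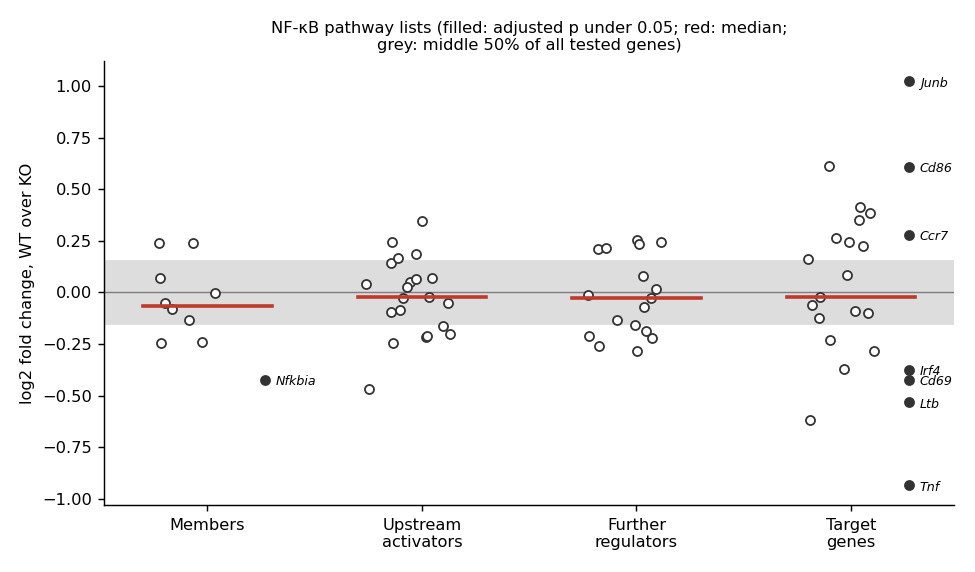
Log2 fold change, WT over KO, of the 10 members, 21 upstream activators, 17 further regulators and 25 target genes tested; each point is a gene, filled where the adjusted p is under 0.05, the red line is the median and grey is the middle 50% of all tested genes. All 4 medians lie within the grey band, and filled genes are Nfkbia among the members and 7 target genes, 3 above 0 and 4 below.

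Libraries that decide a value are visible when each is left out. WT replicate 2 had the highest WT level in 8 of the 10 members, and without it the log2 fold change of Nfkbia was -0.52, of Tnfaip3 -0.41 and of Nfkb1 0.03. Without WT replicate 1, which had the lowest WT level in 9 of the 10, these were -0.36, -0.11 and 0.39. The shares of all genes with these libraries highest or lowest were not computed, so neither count is taken as particular to the members. Directions of Nfkb2, Relb and Nfkbie, whose log2 fold changes were within 0.1 of 0, changed when 1 library was left out. The other 7 members kept their direction in all 14 alternatives run.

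**Figure D5:**
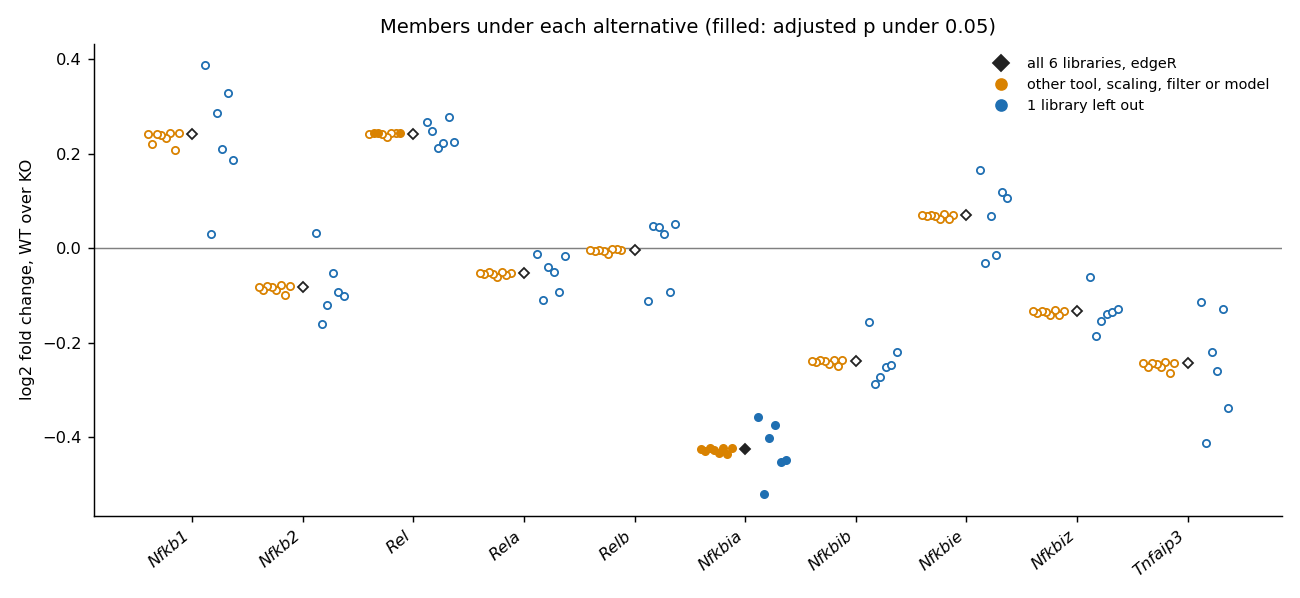
Log2 fold change, WT over KO, of each member in the edgeR fit on all 6 libraries (black), in 8 fits with another tool, scaling, filter or model (orange) and in 6 fits without 1 library (blue); filled points have an adjusted p under 0.05. Nfkbia is below 0 and filled in every fit, from -0.52 to -0.36, and Rel is filled in 3 of the other fits.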

How the data were processed

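Follicular B cells from 3 WT and 3 KO male mice were sequenced after 1 h of culture, with groups taken from the sample titles. The authors made 3′ QuantSeq libraries, sequenced them as 50 bp single-end reads, aligned these to mm10 (STAR) and tallied them by gene (HTSeq). Their tool for differential expression was DESeq2. Tool versions, gene annotation and strand setting are not given in the sources used here. The deposited values are raw read counts without normalization or pooling, and 0 sample columns were left unused. Every gene in the table had at least 10 counts over the 6 libraries. Libraries carry no molecular identifiers, so counting errors cover counting only. Replicates differed by a chi-square per degree of freedom of 6.89 to 10.9, far above 1, and all were kept. The design text gives 3 mice per genotype, and p values measure the spread between these libraries.

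Genes were filtered with filterByExpr, scaled by TMM and compared across all genes with the edgeR (4.0.16, R 4.3.3) quasi-likelihood F test with robust dispersions, Benjamini-Hochberg adjusted, two-sided, with a threshold of 0.05. The SE was derived from each log2 fold change and its F value (size over the root of F), and 95% intervals use the t quantile of the fit. The code was tested on simulated data, with changes given to genes with higher counts. Of genes changed by a log2 fold change of 0.5 in size 74% were recovered, and of those changed by 1 100% were. Of 189 calls 15 were false. Smaller changes were not simulated. Named genes were all members, every called gene of the 3 further lists, the 2 uncalled genes of each with the highest mean CPM, and the 5 genes most like each called member. Members and lists were chosen with earlier results of these data known. List symbols missing from the table were matched through RefSeq synonyms. Gene positions are from GENCODE M21. Alternatives were DESeq2 (1.42.0), limma-voom (limma 3.58.1), RLE factors, library totals, no filter, a mean of at least 50 counts, ordinary dispersions, the replicate number as a block, and omission of each library. Leaving Nfkbia out of the summed inhibitors was chosen after seeing the data.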

Additional observations from a re-analysis of the deposited data

How the results depend on the processing

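Nfkbia was called lower in WT in all 14 alternatives, with adjusted p values from 5.03e-06 to 0.0174. The count of members called was 2 in place of 1 under DESeq2, with a mean of at least 50 counts and with the replicate number as a block, each time by Rel. Same-numbered WT and KO libraries hardly deviated together (correlations of 0.0136 to 0.0498 across genes). Each of the 3 WT libraries still correlated best with the KO library of its own number, which is a hint from the data only. Pairs with unlike numbers were at -0.04 to -0.00308. Correlations this weak cannot decide whether the numbers pair the libraries, and the main fit left the numbers out. The block gave 281 genes in all against 191, 2 members (Rel at an edgeR adjusted p of 0.0354) and 1 upstream activator, Malt1, in place of 0, and 8 target genes in place of 7, adding Irf1. Across fits without 1 library, the count of all genes called ran from 91 to 183, of members it was 1 throughout, of upstream activators it was 0 or 1, of further regulators 0 and of target genes 3 to 6. Target genes were fewest without WT replicate 1 (3) and without KO replicate 3 (3), and were 4 without KO replicate 2, while all genes were fewest without KO replicates 2 (113) and 3 (91). In those fits the median log2 fold change ran from -0.092 (without KO replicate 2) to 0.051 (without KO replicate 3) for subunits and from -0.29 to -0.11 for inhibitors. The KO minus WT difference in inhibitor counts per 100 subunit counts was 96.1, from 86.5 to 104.7 without 1 library, and 6.20 without Nfkbia, which carries most of the inhibitor reads.

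The log2 fold change of Nfkb2 ran from -0.16 (without WT replicate 2) to 0.031 (without WT replicate 1). That of Relb became 0.05 without WT replicate 2, 0.04 without WT replicate 3, 0.03 without KO replicate 1 and 0.051 without KO replicate 3. That of Nfkbie ran from -0.031 (without WT replicate 2) to 0.17 (without WT replicate 1) and was -0.01 without KO replicate 1. None of these was called, and the causes were not tested. Scaling moved the median of all genes by less than 0.01.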
